A study of Mus musculus with 2 samples.

Results

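The 9 hair follicle transcription factors Lhx2, Sox9, Hoxc13, Msx2, Nfatc1, Foxn1, Tbx1, Nfib and Vdr were followed through the epidermal cells of newborn mice that lack the muscarinic receptor gene Chrm3. They are 9 of the 27998 genes listed in the deposited matrices. They were taken by symbol and by no rule on their measured values, but earlier results of these data were known at that time. The dorsal skin came from 2 male Chrm3 KO mice of strain C57BL/6J at postnatal day 0, and 1 droplet single-cell RNA library was made per mouse. The study's aim was to learn what acetylcholine acting through the M3 receptor does in the epidermis. Both libraries carry the same deletion and no wild-type library was analysed here, so every comparison is between cell states within knockout skin and none is a comparison of genotypes.

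The follicle grows down from the epidermis as a placode of cells that express Shh. Behind this front lie progenitor and outer root sheath cells, while matrix cells at the base divide and differentiate into inner root sheath and hair shaft. Lhx2 is a LIM homeobox factor of follicle progenitors, and Sox9 is an SRY-box factor of the outer root sheath and of the future stem cells. Nfatc1, Tbx1 and Nfib are factors known from hair follicle stem cells. Hoxc13, Msx2 and Foxn1 act in the matrix and shaft, where Hoxc13 and Foxn1 are needed for hair keratin expression, and Vdr, the vitamin D receptor, is needed for hair cycling.

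From 10816 barcodes of mouse 1 and 15867 of mouse 2, 19488 cells were kept. These cells, with median depths of 10480 UMIs in mouse 1 and 10577 UMIs in mouse 2, were grouped by clustering in which these 9 genes and 52 other transcription factors had no part, neither as variable genes nor in the naming. The follicle clustering held 8089 cells, which are 41.5% of the kept cells and 42.9% of their UMIs. A state ends in -like because it was named from marker genes, and 1922 cells of the follicle clustering and 3913 other keratinocytes stayed unnamed and are called by their leading gene. The granular IFE-like state, where IFE is the interfollicular epidermis, has 111 cells. Between the mice, 34 barcode sequences were shared by kept cells. A level is given as counts per 1000000 UMIs (CPM) of all cells of a state in 1 mouse, and the mean carries the SD over both mice (n = 2).

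Promoter sequence was found in RefSeq (GRCm38.p6) for 5 of the 9 factors. Of these, Lhx2 and Foxn1 differ in the results. Lhx2 was higher in all named follicle states than in resting basal and suprabasal IFE-like cells. Foxn1 was high in differentiating cells of both follicle and IFE. The 250 bases upstream of a RefSeq start are shown for both. They lie at chr2:38339031-38339280 on the plus strand and chr11:78386609-78386858 on the minus strand, and are printed 5′ to 3′ with the homeobox core TAATTA, found in that of Foxn1, in capitals.
Lhx2: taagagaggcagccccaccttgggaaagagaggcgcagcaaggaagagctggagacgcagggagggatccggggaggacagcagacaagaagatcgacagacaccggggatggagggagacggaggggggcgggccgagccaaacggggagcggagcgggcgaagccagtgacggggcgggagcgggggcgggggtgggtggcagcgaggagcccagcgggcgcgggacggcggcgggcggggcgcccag
Foxn1: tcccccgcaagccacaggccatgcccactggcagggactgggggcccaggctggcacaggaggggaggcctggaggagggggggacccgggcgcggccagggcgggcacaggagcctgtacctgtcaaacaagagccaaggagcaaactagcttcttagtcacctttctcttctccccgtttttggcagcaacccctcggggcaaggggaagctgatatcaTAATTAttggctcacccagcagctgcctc
TAATTA starts at base 222 of the Foxn1 stretch, reads the same on both strands, and was present in 2 of the 7 stretches of these factors (Foxn1 and Msx2) and in 4.84% of 32851 promoter stretches of the same length. Another 8 motifs, each a short core known for 1 of these factors or its family, were searched on both strands in the 7 stretches. The Msx-type core TAATTG was in 0 of them and in 7.17% of all promoter stretches. The Sox core AACAAT was in 0 and in 9.42% of all. The posterior Hox core TTTATT was in 1 (Msx2) and in 18.1% of all, and the T-box core AGGTGT was in 1 (Tbx1) and in 11.8% of all. The NFAT core GGAAA was in 2 and in 55.6% of all, and the Foxn1 core GACGC was in 4 and in 22.6% of all. The nuclear factor I palindrome and the vitamin D receptor direct repeat were in 0 of the 7, against 0.0365% and 0.00609% of all. RefSeq and GENCODE starts can differ, and the Msx2 and Vdr stretches, upstream of their RefSeq starts, lie inside the GENCODE genes. The same holds for the Lhx2 stretch at chr2:38351058-38351307 and the Tbx1 stretch at chr16:18588900-18589149. It does not hold for the printed stretches of Lhx2 and Foxn1. Matches are descriptions of the letters and not binding sites.

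Lhx2 (chr2:38339281-38369733, GRCm38) was highest in the Shh-like follicle state. Its level there was 931 CPM in mouse 1 and 831 CPM in mouse 2 (881 ± 70.2), and a UMI was found in 99.3% of these cells. Among the other named states dividing sheath- and shaft-like cells followed with 477 ± 48.5 CPM and dividing follicle cells with 459 ± 10.9 CPM, whose ranges over the mice overlapped. Sheath- and shaft-like cells had 371 ± 30.4 CPM, follicle progenitor-like cells 324 ± 6.99 CPM and upper follicle-like cells 170 ± 7.08 CPM. Resting basal IFE-like cells were at 8.02 and 9.70 CPM, so that no named follicle state overlapped with them.

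The level of Lhx2 in basal IFE-like cells was below that in the cell types used as a measure of free RNA. Melanocyte-like cells showed 50.8 ± 4.56 CPM, Langerhans or myeloid-like cells 41.5 ± 14.9 CPM and T cell-like cells 34.4 ± 24.7 CPM. The median depths of these groups were 9240 UMIs per cell in basal IFE-like cells, 9704 UMIs in Langerhans or myeloid-like cells and 9061 UMIs in T cell-like cells. Doublets were called for 10.8% of melanocyte-like, 9.17% of Langerhans or myeloid-like and 3.33% of T cell-like cells. Without them the level of Lhx2 was 16.6 CPM, 9.99 CPM and 10.6 CPM in these types and 8.41 CPM in basal IFE-like cells, whose UMIs are read as background either way. Suprabasal IFE-like cells, at 23.5 ± 3.69 CPM with and 19.9 CPM without doublets, were below these types with doublets and above them without.

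Hoxc13 (chr15:102921103-102928814), a homeobox factor that acts on hair keratin genes, followed a similar order of states. It reached 144 and 150 CPM in the Shh-like state, 112 and 95.6 CPM in dividing sheath- and shaft-like cells and 92.7 and 66.2 CPM in sheath- and shaft-like cells. The values of the Shh-like state did not overlap with those of either sheath and shaft state. Progenitor-like cells had 28.7 ± 2.43 CPM and basal IFE-like cells 2.03 ± 0.0404 CPM, against 5.44 ± 0.366 CPM in melanocyte-like cells, or 1.98 and 2.32 CPM without called doublets.

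Sox9 (chr11:112782224-112787760) was highest in follicle progenitor-like cells with 317 and 263 CPM. Upper follicle-like cells, which express Krt79, had 261 and 209 CPM, and dividing follicle cells 178 and 139 CPM. The Shh-like state had 44.2 ± 4.84 CPM. Both sheath and shaft states were near 10 CPM, at 10.4 ± 1.27 CPM in dividing and 9.48 ± 1.66 CPM in other cells, against 18.2 ± 1.66 CPM in melanocyte-like cells. Basal IFE-like cells were at 12 ± 1.44 CPM. Without called doublets this order turned, with 6.72 CPM in melanocyte-like cells, 7.65 and 8.01 CPM in the sheath and shaft states and 12 CPM in basal IFE-like cells, so whether Sox9 was above background there depends on the doublets.

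Nfatc1, a calcium-responsive factor, and Tbx1 (chr16:18580979-18590671), a T-box factor, were likewise highest in progenitor-like cells among the 6 named follicle states. Nfatc1 was at 138 and 137 CPM there, at 72.8 ± 0.176 CPM in dividing follicle cells and at 35.9 ± 6.96 CPM in upper follicle-like cells. The sebaceous-like cells of the follicle clustering had 160 and 114 CPM of Nfatc1, a range that contains the progenitor-like values. The separate sebaceous-like state outside the follicle clustering had 24.7 ± 5.65 CPM. Sheath- and shaft-like cells had 3.56 ± 1.32 CPM and basal IFE-like cells 4.35 ± 0.402 CPM. Langerhans or myeloid-like cells held 45.4 ± 1.09 CPM and T cell-like cells 21.6 ± 0.213 CPM, so these immune groups cannot serve as its background. Tbx1 was at 126 and 121 CPM in progenitor-like cells, at 84.7 ± 4.11 CPM in dividing follicle cells, at 25.2 ± 4.50 CPM in upper follicle-like cells and at 0.863 ± 0.493 CPM in basal IFE-like cells.

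Nfib (chr4:82290173-82705750), a nuclear factor I protein, was detected in every group of cells. It was at 1233 and 1120 CPM in progenitor-like cells, 1061 ± 45 CPM in dividing follicle cells and 634 ± 20.7 CPM in the Shh-like state. Sheath- and shaft-like cells had 385 ± 57.2 CPM, a range that overlapped with the 377 ± 29.2 CPM of basal IFE-like cells. Suprabasal IFE-like cells were lower, at 192 and 204 CPM, against 126 ± 0.387 CPM in T cell-like and 222 ± 10.2 CPM in melanocyte-like cells. Without called doublets the order with melanocyte-like cells turned, at 190 CPM in suprabasal IFE-like and 147 CPM in melanocyte-like cells.

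Msx2 (chr13:53466884-53473074), a homeobox factor of the hair matrix, was concentrated in the sheath and shaft states. Sheath- and shaft-like cells had 97.9 and 76.9 CPM and dividing sheath- and shaft-like cells 74.1 and 83.4 CPM, ranges that overlapped. The Shh-like state was at 21.4 and 17.9 CPM and progenitor-like cells at 1.86 ± 0.0127 CPM, against 3.06 ± 0.557 CPM in melanocyte-like cells. Without called doublets these were 1.86 and 1.22 CPM, which reverses their order. No Msx2 UMI was found in the 332 sebaceous-like cells of the follicle clustering, which allows a level of up to 2.65 CPM in mouse 1 and 2.13 CPM in mouse 2. Outside the epithelium, 109 dermal-like cells had 46.3 ± 18.1 CPM, or 55.1 CPM without called doublets, which were 14.7% of those cells.

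Foxn1 (chr11:78357577-78386558), a forkhead factor of keratinocyte differentiation, was the most sparsely detected, with 204 UMIs in mouse 1 and 390 UMIs in mouse 2. Sheath- and shaft-like cells held 28 and 73 UMIs, or 12.2 CPM (exact Poisson interval 8.13 to 17.7) and 20.5 CPM (16.1 to 25.7). Upper follicle-like cells held 82 and 91 UMIs, or 11.4 and 12 CPM. Suprabasal IFE-like cells held 64 and 140 UMIs, or 6.39 and 10.7 CPM. In basal IFE-like cells 2 and 4 UMIs gave 0.206 and 0.242 CPM. Melanocyte-like cells had 0.445 ± 0.287 CPM and Langerhans or myeloid-like cells 0.633 ± 0.895 CPM, or 0.342 and 0 CPM without called doublets. No UMI was found in 90 T cell-like or 109 dermal-like cells, which are too few to resolve levels as low as the basal one. Granular IFE-like cells followed with 5.43 ± 3.35 CPM from 1 and 5 UMIs, and no other named state reached 3 CPM. Intervals and limits cover counting error only.

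Vdr (chr15:97854425-97910630) varied less over the means of the 6 named follicle states than over their clusters, which are given further on. The state means ranged from 70.1 ± 12.4 CPM in upper follicle-like cells to 107 ± 3.82 CPM in dividing follicle cells. Suprabasal IFE-like cells had 31.8 and 21.4 CPM, basal IFE-like cells 14.7 and 10.0 CPM and melanocyte-like cells 11.4 ± 2.22 CPM, or 4.93 CPM without called doublets.

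With the groups of cells ordered by level, 17 pairs of neighbours were compared per factor by the ranges of both mice. The ranges overlapped in 6 pairs for Lhx2, 8 for Tbx1, 9 for Sox9 and 9 for Hoxc13. They did so in 10 pairs for Nfatc1, 11 for Nfib, 12 for Msx2 and 13 each for Foxn1 and Vdr, so much of the order is not resolved. For Nfib, Nfatc1 and Msx2 the highest group also overlapped with the next.

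**Figure D1:**
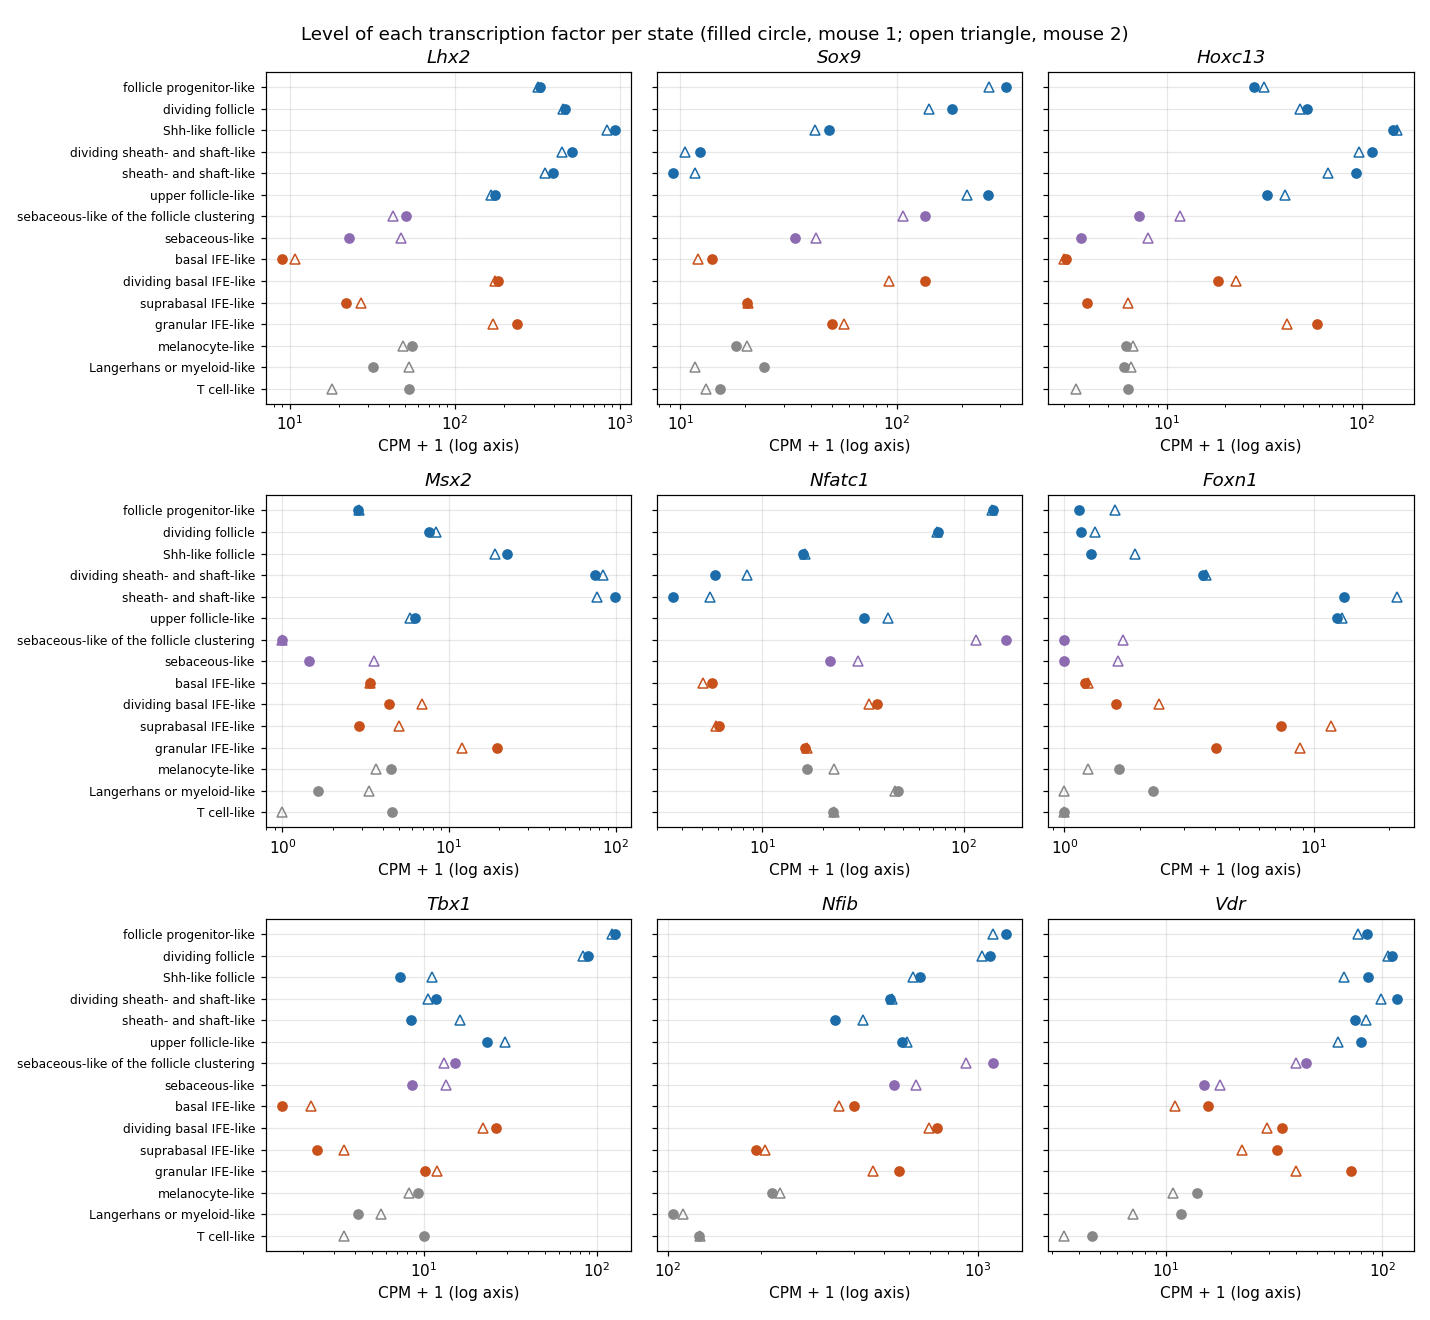
Level of each transcription factor as CPM + 1 on a log axis, with a row per state and a point per mouse (filled circle, mouse 1; open triangle, mouse 2; blue, follicle; purple, sebaceous; orange, IFE; grey, other cell types). Of the groups drawn, Lhx2 and Hoxc13 have their highest means in the Shh-like state at 881 and 147 CPM. Sox9, Nfatc1, Tbx1 and Nfib have theirs in progenitor-like cells, where the Nfatc1 values lie within the range of sebaceous-like cells of the follicle clustering. Msx2 and Foxn1 have theirs in sheath- and shaft-like cells at 87.4 and 16.4 CPM.

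The first comparison asked which factors differ between follicle and interfollicular keratinocytes. UMIs were summed per mouse and state and tested with edgeR's quasi-likelihood test over 12925 genes, with Benjamini-Hochberg adjustment and a threshold of 0.05. Of the 9 factors, 8 were higher in the mean of the 6 follicle states than in the mean of the 4 IFE states and 0 were lower. Here and in the later tests a mean over states is taken on the log scale of the fit, so it can differ from a mean of CPM. Over all genes 46.3% were called, 24.3% higher and 21.9% lower. The median log2 fold change was 1.5 for the factors and 0.02 for all genes.

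Lhx2 had the largest difference, with a log2 fold change of 2.81 ± 0.0820 (SE, edgeR adjusted p = 8.06e-16). Hoxc13 was higher by 2.61 ± 0.114, Tbx1 by 2.34 ± 0.165 and Vdr by 1.56 ± 0.0976 on the log2 scale. Msx2 was higher by 1.5 ± 0.162 and Nfatc1 by 1.01 ± 0.127. Sox9 and Nfib showed smaller differences of 0.69 ± 0.104 and 0.62 ± 0.0497. Foxn1 gave -0.19 ± 0.349 (edgeR adjusted p = 0.695).

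In 2 of the IFE-named states Lhx2 was above its level in melanocyte-like cells. Dividing basal IFE-like cells held 178 ± 4.84 CPM of Lhx2 and 133 and 90.6 CPM of Sox9, and granular IFE-like cells 204 ± 48.4 CPM of Lhx2 and 49.3 ± 12.4 CPM of Hoxc13. The 40 Merkel-like cells, with 0% called doublets, held 259 ± 109 CPM of Lhx2 and 69.5 ± 39.5 CPM of Hoxc13. Both of these means are above those of the dividing basal and granular IFE-like states. The summed level of the 21 general follicle markers was 5467 CPM in dividing basal IFE-like cells and 4128 CPM in granular IFE-like cells. Basal IFE-like cells had 3120 CPM. Among the follicle states it was 21767 CPM in upper follicle-like, 9377 CPM in progenitor-like, 5870 CPM in dividing follicle and 4995 CPM in Shh-like cells. Sheath- and shaft-like cells had 3831 CPM and dividing sheath- and shaft-like cells 2812 CPM. The same sum was 18618 CPM in sebaceous-like, 7814 CPM in Langerhans or myeloid-like and 3574 CPM in suprabasal IFE-like cells. It is therefore not particular to follicle cells and does not measure their share. Doublets were called for 9.52% of dividing basal IFE-like and 0% of granular IFE-like cells. With called doublets left out, dividing basal IFE-like cells held 165 CPM of Lhx2 and 112 CPM of Sox9. The part of follicle cells in these states was not tested.

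Without those states, chosen after seeing the data, the fold changes were larger. Against resting basal and suprabasal IFE-like cells, where 63.8% of all genes were called, the log2 fold change was 4.53 ± 0.119 for Lhx2, 4.17 ± 0.154 for Hoxc13, 3.95 ± 0.197 for Tbx1 and 1.74 ± 0.118 for Sox9. The same 8 factors were called higher, and Foxn1 was at 0.11 ± 0.380. For follicle progenitor-like against resting basal IFE-like cells, where 35% of all genes were called, Tbx1 differed by 6.83 ± 0.277, Lhx2 by 5.0 ± 0.186, Nfatc1 by 4.82 ± 0.173 and Sox9 by 4.43 ± 0.178. Msx2 was at -0.51 ± 0.397 in that pair (edgeR adjusted p = 0.344), where the sign is the reverse of that for all follicle states.

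**Figure D2:**
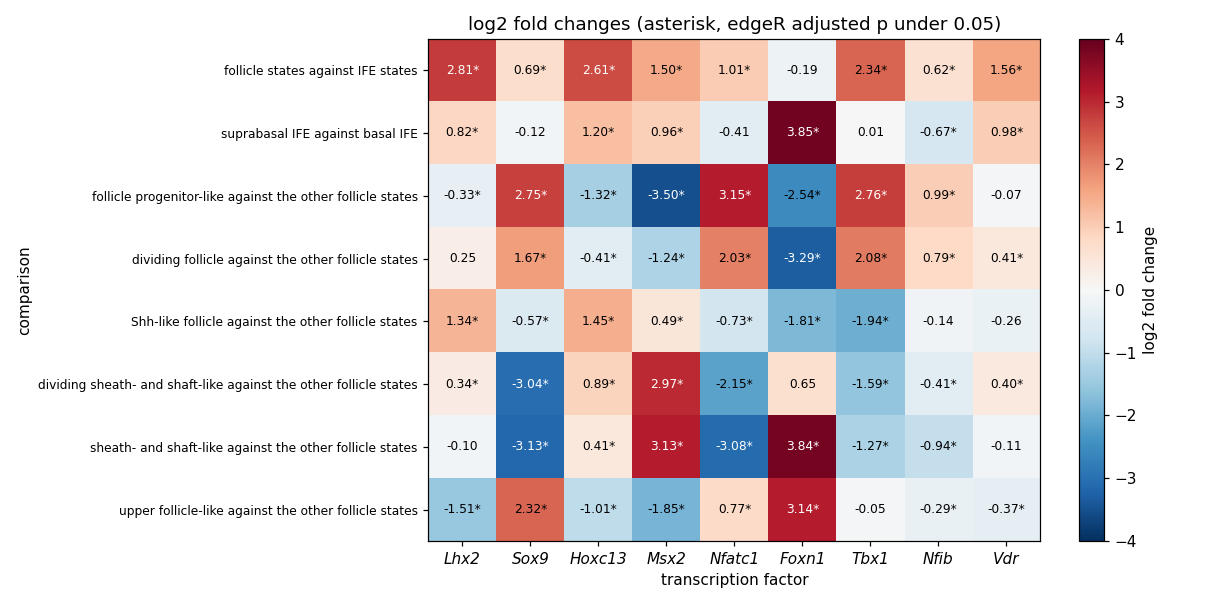
log2 fold changes of the 9 factors (columns) in 8 comparisons (rows) from edgeR, with an asterisk where the adjusted p was under 0.05. Sox9 stands at 2.75 in progenitor-like and -3.13 in sheath- and shaft-like cells, and Msx2 at -3.50 and 3.13.

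Within the follicle each state was compared with the mean of the other 5. In progenitor-like cells 8 of the 9 factors were called, 4 in each direction, where 45.5% of all genes were called. Here 24.9% of all genes were called higher and 20.6% lower. Nfatc1 was higher by 3.15 ± 0.106, Tbx1 by 2.76 ± 0.130, Sox9 by 2.75 ± 0.110 and Nfib by 0.99 ± 0.0749 on the log2 scale. Msx2 was lower at -3.50 ± 0.268, Foxn1 at -2.54 ± 0.594, Hoxc13 at -1.32 ± 0.151 and Lhx2 at -0.33 ± 0.117. Vdr gave -0.07 ± 0.130 (edgeR adjusted p = 0.681).

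In dividing follicle cells 8 factors were called, 5 higher and 3 lower, where 28.1% of all genes were called. In this comparison 17% of all genes were called higher and 11% lower. Tbx1 was higher by 2.08 ± 0.138, Nfatc1 by 2.03 ± 0.116, Sox9 by 1.67 ± 0.119, Nfib by 0.79 ± 0.0760 and Vdr by 0.41 ± 0.125 on the log2 scale. Foxn1 was lower at -3.29 ± 0.643, Msx2 at -1.24 ± 0.217 and Hoxc13 at -0.41 ± 0.140. The comparisons of single follicle states share reference states and are not independent of each other. Lhx2 was at 0.25 ± 0.111 (edgeR adjusted p = 0.0986), and with the mouse as replicate block the adjusted p was 0.0213.

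The Shh-like state was higher in Hoxc13 by 1.45 ± 0.119, in Lhx2 by 1.34 ± 0.103 and in Msx2 by 0.49 ± 0.175. DESeq2 did not call Msx2 here (0.48, adjusted p = 0.0584). Tbx1 was lower at -1.94 ± 0.199, Foxn1 at -1.81 ± 0.546, Nfatc1 at -0.73 ± 0.152 and Sox9 at -0.57 ± 0.141. In all, 7 of 9 factors were called, where 27% of all genes were called, and 15.6% of all genes were called higher and 11.4% lower. Vdr was at -0.26 ± 0.132, with an adjusted p of 0.162 in edgeR and of 0.0238 with the replicate block. Mki67, a gene of dividing cells, was at 335 and 291 CPM in this state against 8.44 and 10.6 CPM in basal IFE-like cells.

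In sheath- and shaft-like cells 3 factors were higher and 4 lower, where 26.9% of all genes were called, and 14.6% of all genes were called higher and 12.4% lower. Foxn1 was higher by 3.84 ± 0.324, Msx2 by 3.13 ± 0.159 and Hoxc13 by 0.41 ± 0.147 on the log2 scale. Sox9 was lower at -3.13 ± 0.214, Nfatc1 at -3.08 ± 0.246, Tbx1 at -1.27 ± 0.237 and Nfib at -0.94 ± 0.0882. Hoxc13 gave 0.67 in mouse 1 and 0.15 in mouse 2, and DESeq2 gave an adjusted p of 0.0537. The state was led by Krt28, Krt73, Krt35 and Krt27, whereas Krt71 was at 9.18 and 21.0 CPM.

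The dividing sheath- and shaft-like cells differed from the other states in 8 of 9 factors, 4 in each direction, where 33.6% of all genes were called, and 17.6% of all genes were called higher and 16% lower. Msx2 was higher by 2.97 ± 0.151 and Hoxc13 by 0.89 ± 0.132, and Sox9 was lower at -3.04 ± 0.197. Foxn1 was at 0.65 ± 0.456 (edgeR adjusted p = 0.297), at 2.59 and 2.69 CPM against 12.2 and 20.5 CPM in the sheath- and shaft-like cells with fewer dividing genes. Mki67 was at 714 and 656 CPM in the former and 375 and 361 CPM in the latter.

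Upper follicle-like cells were higher in Foxn1 by 3.14 ± 0.288, in Sox9 by 2.32 ± 0.113 and in Nfatc1 by 0.77 ± 0.131. Msx2 was lower at -1.85 ± 0.232, Lhx2 at -1.51 ± 0.129 and Hoxc13 at -1.01 ± 0.148, and 8 of 9 factors were called where 53.6% of all genes were called. DESeq2 did not call Vdr (-0.36, adjusted p = 0.0511), which edgeR gave at -0.37 ± 0.134. Among all genes, 27.8% were called higher and 25.8% lower.

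The progenitor-like state was made of 4 clusters in which the factors had different levels. Tbx1 was at 390 ± 7.03 CPM in the Sfrp1-led cluster and 218 ± 5.62 CPM in the Egfl6-led cluster, but at 44.8 ± 2.17 CPM in the Tgfb2-led and 11.6 ± 3.72 CPM in the Fst-led cluster. Lhx2 was at 483 ± 11.6, 465 ± 12.9, 276 ± 1.86 and 131 ± 1.93 CPM in the same clusters. Vdr was highest in the Sfrp1-led cluster with 251 and 226 CPM and lowest in the Fst-led cluster with 35.1 and 42.6 CPM. Sox9 differed less, from 218 ± 28.2 CPM in the Tgfb2-led to 366 ± 65.1 CPM in the Egfl6-led cluster. Nfatc1 was lowest in the Sfrp1-led cluster at 79.6 ± 18.4 CPM and reached 153 ± 1.47 CPM in the Tgfb2-led cluster. No test was made between clusters of the same state.

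Among the unnamed follicle clusters, 400 cells led by Tagln, a smooth muscle actin-binding gene, had more Vdr than any named state, at 355 and 309 CPM. In the same cells Lhx2 was at 711 and 633 CPM, Tbx1 at 144 and 157 CPM, Hoxc13 at 104 and 102 CPM and Msx2 at 54.9 and 58.7 CPM. Sox9 was at 22.4 ± 3.90 CPM and Nfatc1 at 4.53 ± 1.42 CPM. The Col14a1-led cluster of 1045 cells had 539 ± 11.4 CPM of Lhx2, 168 ± 33.6 CPM of Sox9 and 118 ± 0.902 CPM of Tbx1. The Dcn-led cluster of 415 cells had 544 ± 41.0 CPM of Lhx2 but 5.49 ± 0.587 CPM of Tbx1. Another unnamed follicle cluster, led by Mt4, had 62 cells with a median depth of 2746.5 UMIs and 88.2 ± 24.4 CPM of Msx2. The 1922 cells of the unnamed follicle clusters entered no test, and neither did the 3913 unnamed keratinocytes outside the follicle clustering. In these unnamed keratinocytes the basal IFE markers summed to 19557 CPM, against 32899 CPM in basal IFE-like cells. Of the unnamed keratinocytes, 2287 Pou3f1-led cells held 30.5 ± 4.77 CPM of Lhx2, 73.0 ± 0.809 CPM of Sox9 and 28.4 ± 0.494 CPM of Nfatc1. Ung-led cells held 123 ± 7.39 CPM of Lhx2 and 148 ± 29.9 CPM of Sox9, and Cdc20-led cells 296 ± 48.3 and 106 ± 12.6 CPM.

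**Figure D3:**
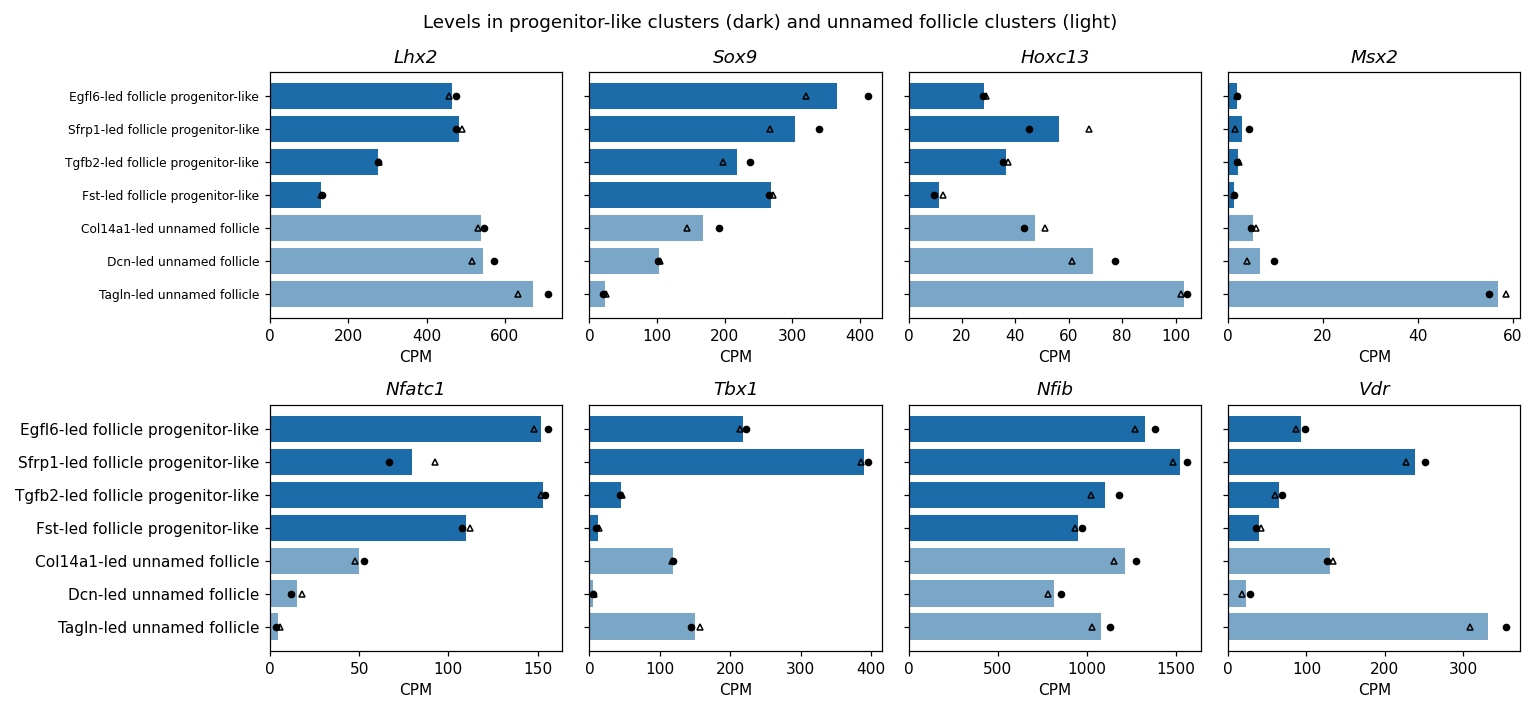
Mean CPM (bars) and the value of each mouse (circle, mouse 1; triangle, mouse 2) in the 4 progenitor-like clusters and 3 of the unnamed follicle clusters, for 8 factors with Foxn1 left out as it is near 0 there. The Mt4-led unnamed cluster is not drawn. Tbx1 falls from 390 CPM in the Sfrp1-led to 11.6 CPM in the Fst-led cluster, and Vdr reaches 332 CPM in the Tagln-led cluster.

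In the interfollicular epidermis the question was whether the factors change from basal to suprabasal cells. In the mean of suprabasal and granular IFE-like against both basal states, 5 factors were higher and 1 lower, where 30.3% of all genes were called, and 13.7% of all genes were called higher and 16.5% lower. Foxn1 was higher by 3.85 ± 0.680 (edgeR adjusted p = 0.000164) and Nfib was lower at -0.67 ± 0.0774 (9.97e-07). Lhx2, Hoxc13, Msx2 and Vdr were higher by 0.82 ± 0.133, 1.2 ± 0.237, 0.96 ± 0.337 and 0.98 ± 0.194. Their levels in granular IFE-like cells were 204, 49.3, 14.6 and 54.6 CPM. In suprabasal IFE-like cells they were 23.5, 4.13, 2.94 and 26.6 CPM. Granular IFE-like cells also held 312 and 128 CPM of the inner root sheath and hair shaft marker Krt28. Suprabasal IFE-like cells held 14.2 and 23.1 CPM of it and basal IFE-like cells 2.98 and 8.85 CPM. Mki67 was at 244 and 197 CPM in granular and 16.1 and 16.6 CPM in suprabasal IFE-like cells. What part of these differences comes from follicle cells in the granular state was not tested.

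When suprabasal IFE-like cells alone were set against resting basal IFE-like cells, an alternative chosen after seeing the data in which 46.2% of all genes were called, Foxn1 was higher by 5.23 ± 0.489 and Vdr by 1.22 ± 0.196, and Nfib was lower at -0.83 ± 0.105. Lhx2 (1.49 ± 0.188) and Hoxc13 (1.16 ± 0.330) stayed called, and Msx2 was no longer called (0.45 ± 0.336, edgeR adjusted p = 0.287). Sox9 was now called with 0.80 ± 0.187 and Tbx1 with 1.15 ± 0.459. These are low levels, with Sox9 at 19.4 ± 0.0446 CPM and Tbx1 at 1.92 ± 0.743 CPM in suprabasal IFE-like cells, against 18.2 ± 1.66 and 7.69 ± 0.744 CPM in melanocyte-like cells. Without called doublets Sox9 was at 17.9 CPM against 6.72 CPM, and Tbx1 at 0.963 CPM against 2.91 CPM. Hoxc13 was at 4.13 ± 1.74 CPM against 5.44 ± 0.366 CPM in the same cells, or 3.33 against 2.32 CPM without called doublets.

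Across the 24 sums of state and mouse, Lhx2 and Hoxc13 had the highest correlation among pairs of factors (Pearson r of log2(CPM + 10) = 0.94). Lhx2 and Vdr (r = 0.88), Sox9 and Nfatc1 (r = 0.88) and Nfatc1 and Nfib (r = 0.87) followed. Msx2 ran against Sox9 (r = -0.56) and Nfatc1 (r = -0.55), and Foxn1 against Nfib (r = -0.56). Sums of a mouse share a library and the correlations are descriptions.

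**Figure D4:**
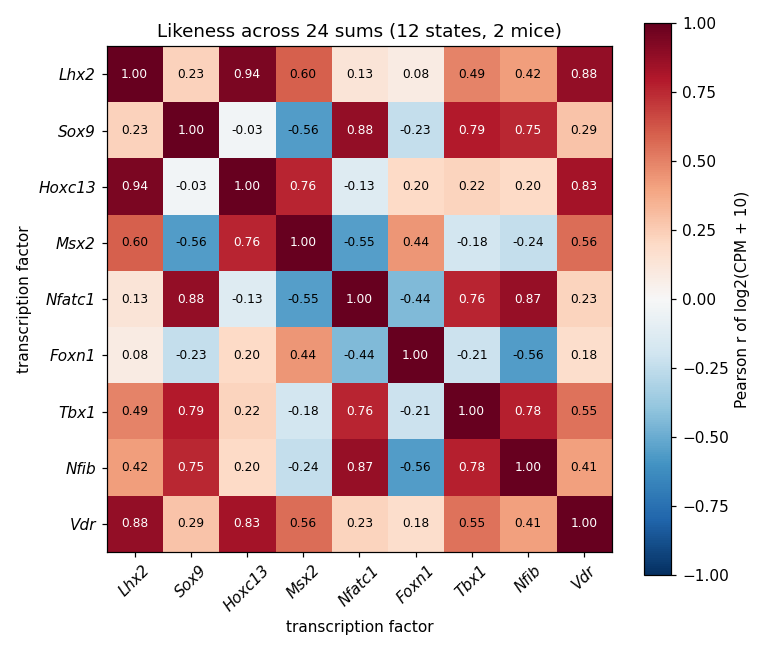
Pearson r of log2(CPM + 10) between the 9 factors over 24 sums (12 keratinocyte states, 2 mice), with values printed in each cell. One group of high values joins Lhx2, Hoxc13 and Vdr, and another joins Sox9, Nfatc1, Tbx1 and Nfib. Msx2 stands at 0.76 with Hoxc13 and at 0.60 with Lhx2.

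Of 7896 genes with a mean of at least 10 CPM, up to 3 are named for each factor by the highest r over the same sums. Closest to Lhx2 were Csrp2, Dennd1a and Nap1l1 (r = 0.95 for each), and to Hoxc13 Tgfb1, Exosc2 and Dennd1a (r = 0.95 for each). Sox9 was closest to Cald1 (0.95) and App (0.94). Nfatc1 was closest to Gpc4 (0.96), Col9a3 (0.95) and Dixdc1 (0.95), and Tbx1 to Rnf130 (0.95), Fermt2 (0.95) and Elmo1 (0.92). Msx2 was closest to Dlx3 (0.97), Myb (0.95) and Gpr180 (0.95). Foxn1 was closest to Lypd3 (0.89), Krt73 (0.88) and Ybx3 (0.87), Nfib to Maged1 (0.95), Fgfr1 (0.93) and Gmds (0.90), and Vdr to Fyn (0.90), Palm (0.90) and Fblim1 (0.89).

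Of 52 other transcription factors known from skin, 40 were tested in the comparison of follicle and IFE states, of which 18 were higher and 11 lower, where 46.3% of all genes were called. Their median log2 fold change was 0.26. The largest among those higher were Trps1 (2.61 ± 0.104), Dlx2 (2.35 ± 0.187), Dlx1 (2.24 ± 0.266), Gata6 (2.22 ± 0.411) and Foxe1 (1.91 ± 0.300). The largest among those lower were Klf5 (-1.96 ± 0.109), Nfia (-1.04 ± 0.0832), Irx4 (-0.81 ± 0.0640), Foxn2 (-0.65 ± 0.132) and Barx2 (-0.61 ± 0.0965). The other nuclear factor I genes Nfic and Nfix, named after their values were seen, gave -0.09 ± 0.0530 and -0.09 ± 0.0615 and were not called.

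Dlx3, the gene closest to Msx2, is a homeobox factor of the hair matrix and shaft. It was at 92.2 and 82.2 CPM in sheath- and shaft-like cells, 79.3 and 73.5 CPM in dividing sheath- and shaft-like cells and 1.70 and 3.73 CPM in progenitor-like cells.

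Hair shaft genes include keratins known to depend on Hoxc13 and Foxn1. Of 21 listed genes, 20 were found in the files and 14 could be tested. In sheath- and shaft-like cells 7 were higher and 0 lower, where 26.9% of all genes were called, a count that the naming of this state partly fixed because Krt35, Padi3 and Crym were among its markers and shaft genes could take part in the clustering. Between follicle and IFE states, where 46.3% of all genes were called and 24.3% called higher, 3 were higher, namely Krt35 (1.62), Padi3 (1.57) and Krt86 (1.02 on the log2 scale), and Dsg3 was lower at -0.36, with a median of 0.52 over the 14. The hair keratin Krt35 was highest in sheath- and shaft-like cells, with 356 and 134 CPM. The desmosomal gene Dsc2 was highest in 40 Merkel-like cells, with 48.7 and 31.2 CPM, and S100a3 in granular IFE-like cells, with 21.4 and 34.3 CPM. These levels of Dsc2 and S100a3 rest on small groups, with 20 Merkel-like cells in each mouse and 48 and 63 granular IFE-like cells. Krt35 was at 99.3 and 60.5 CPM in the Shh-like state, where Hoxc13 was highest and Foxn1 was at 0.283 and 0.916 CPM. Whether Krt35 depends on either factor in these cells was not tested.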

How the data were processed

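The deposited UMI counts per gene and barcode were made by the authors with Cell Ranger 3.0.2 on mm10 (submitters' processing notes); the kit chemistry is given differently in the labels and the methods. The 9 genes and all lists were chosen with earlier results of these data known. The study's limits on a barcode (at least 900 and at most 7700 detected genes, mitochondrial share below 10%) were applied, and the remaining cells were clustered with Seurat 5.3.0 (2000 variable genes, 30 components, resolution 0.8). Non-follicle clusters were named where at least 3 markers of the leading list were over 2-fold, and dividing clusters were assigned to follicle or IFE by a gap of at least 0.5 (log2) between follicle and basal markers. Clusters led by a follicle list counted as follicle where the mean enrichment of follicle markers exceeded that of basal markers. The gap also assigned a Tagln-led cluster of 898 cells, with mean log2 enrichments of -0.59 for follicle and -1.35 for basal markers. Follicle cells were clustered again, and a name there also needed a marker among the 10 leading genes. These thresholds were set after clusters were seen. Scrublet in scanpy 1.11.5 marked 1.93% and 3.60% of cells, which were kept in the main analysis. UMIs were summed per mouse and state for states of at least 20 cells per mouse, and 24 sums were fitted with edgeR 4.0.16 (TMM, filterByExpr, quasi-likelihood test, Benjamini-Hochberg adjustment, threshold 0.05). Sums of a mouse come from the same animal, so mouse numbers pair them. Over 66 pairs of states the mouse differences had a median correlation of 0.11 (lowest -0.01, highest 0.30). The main fit held the state only and no term for the mouse, so sums of a mouse were treated as independent. Its 12 residual degrees of freedom come from the same 2 mice in 12 states and not from more animals. The p-values therefore rest on 2 mice, and the states were formed from the same cells. The test was also run on simulated counts with 200 changed genes, drawn independently for each sum and without a mouse effect. That run checks the code and does not measure how the test performs on these data. Shares were also computed after thinning to 3000 UMIs. Genes were named by a fixed rule: the 9 factors, the 3 genes most like each, of the other transcription factors the 5 largest changes in each direction, and of the shaft genes the 3 highest levels. One gene that this rule names is not reported here. DESeq2 1.42.0 and the alternatives in the closing section were also run. Coordinates are from GENCODE M21 (GRCm38). Each library's total was 109756784 and 166441732 UMIs.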

Additional observations from a re-analysis of the deposited data

How the results depend on the processing

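The number of genes called stayed within 1.5 times for all 8 comparisons under DESeq2, DESeq2 size factors in edgeR, no filter on low counts, the mouse as replicate block, and doublets left out. With the replicate block the count for follicle against IFE states was 6369. In sheath- and shaft-like cells 3479 genes were called, against 5963 at resolution 0.5 and 5700 at resolution 1.2, where no separate dividing sheath- and shaft-like state was formed. In suprabasal against resting basal IFE-like cells alone 5974 were called, against 3913. The fold changes of the factors were not compared between resolutions. Of 72 fold changes of the factors, 72 kept their call with DESeq2 size factors and 72 without doublets. DESeq2 lost 3, Hoxc13 in sheath- and shaft-like cells (0.41, adjusted p = 0.0537), Msx2 in the Shh-like state (0.48, 0.0584) and Vdr in upper follicle-like cells (-0.36, 0.0511). The replicate block added 2, given in the report, and changed no other call, and no filter added Lhx2 in dividing follicle cells (0.26). Msx2 turned to -0.51 in progenitor-like against resting basal IFE-like cells. With 1 mouse left there was no test, and the sign of every called fold change was kept in both mice. Without mouse 1, 10 of the 72 values differed from the main value by at least the SD over the mice, and without mouse 2 also 10. Thinned to 3000 UMIs, the share of cells with a UMI in the state with the highest level was 90.0% for Lhx2, 94.7% for Nfib, 54.6% for Sox9, 32.1% for Nfatc1, 31.1% for Hoxc13, 25.3% for Tbx1, 24.4% for Vdr, 20.1% for Msx2 and 3.41% for Foxn1, each lower than unthinned. Foxn1 rests on 204 and 390 UMIs in all. Levels in melanocyte-like, Langerhans or myeloid-like and T cell-like cells fell without called doublets, as given in the report. The cause of each change was not tested.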
